A study of Mus musculus with 6 samples.

Results

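Transport between the endoplasmic reticulum (ER) and the Golgi was described through 39 genes: subunits of the COPII and COPI coats, proteins of the ER exit sites, the GTPases that load COPI, the p24 family, cargo receptors and the SNAREs of the early secretory pathway. The genes were chosen by symbol from a list set with earlier results of these data known. All 39 were found among the 55487 genes of the table, each with its own Ensembl identifier. The cells were MIN6, an established mouse beta cell line that secretes insulin. They had been transiently transfected, using lipofectamine, with full-length PTHrP, the parathyroid hormone-related protein (gene Pthlh), or with the DsRed vector, which the labels call empty and which served as the control. RNA was taken within 3 days, and each group had 3 libraries. The series title states the question as the effect of PTHrP on ER stress in beta cells. The labels do not give the share of cells that took up a construct, and no untransfected library was analysed here. In such bulk RNA, fewer cells of a kind and less RNA per cell cannot be told apart.

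COPII coats bud vesicles from the ER. The GTPase SAR1 recruits the inner coat of SEC23 and SEC24, and SEC13 and SEC31 polymerise over it as a cage. SEC24 is the subunit that binds cargo, and its paralogues differ in the export signals they recognise. COPI, the coatomer complex recruited by ARF GTPases, returns ER residents and recycled receptors from the Golgi. Beta cells send large amounts of proinsulin along this route, and several of its genes are known targets of the ER stress transcription factor XBP1.

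The libraries held 84427033 to 94613684 gene counts, and the test covered 21141 genes that passed a filter on low counts, all 39 members among them. Levels are given as CPM (counts scaled to a common library size) after TMM scaling, as mean ± SD over the 3 libraries of a group. Fold changes are on the log2 scale, PTHrP minus DsRed, with an approximate standard error (SE). Pthlh had 8.10, 6.50 and 8.37 CPM in the PTHrP libraries, against 0, 0.0457 and 0.0874 CPM in the DsRed libraries. The 8 beta cell markers summed to 48074 to 55370 CPM with PTHrP and 49776 to 62260 CPM with DsRed, without TMM scaling, and none of the 8 was at 0. The 4 alpha cell markers summed to 326 to 414 CPM with PTHrP and 355 to 396 CPM with DsRed. The delta, PP, acinar, duct, fibroblast, immune and endothelial lists each summed to at most 4.95 CPM in any library.

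No member passed the test over all genes, and most had a slightly lower level with PTHrP than with DsRed. Of the 39 members, 35 had a negative log2 fold change and 4 a positive one, with a median of -0.13 and a range of -0.62 to 0.09. Over all 21141 genes tested, 51.3% were negative and the median was -0.0068. Because the list was chosen with earlier results of these data known, its difference from all genes may be partly built in. None of the 39 passed (edgeR quasi-likelihood test, smallest adjusted p = 0.202), where 0.0237% of all genes were called lower and 0.0189% higher. At an unadjusted p under 0.05, 14 members were lower and none was higher, while 3.98% of all genes tested were lower and 4.92% higher. Among the 7459 genes with a mean level at or above that of the lowest member, 19.7 CPM, the share with an unadjusted p under 0.05 and a lower level was 6.1%. All 3 PTHrP libraries lay under all 3 DsRed libraries for 16 members, and over them for 1 member, Tmed4. Over all genes tested, 7.88% lay under and 8.45% over, and among the 7459 genes 10.3% lay under. Some alternatives called more members, and also more of all genes. With DESeq2, 3 members passed, all lower, where 0.354% of the genes with an adjusted p were called lower. With limma-voom no member passed. With limma-voom and library quality weights 3 passed, all lower, where 0.416% of all genes were called lower. With edgeR and no filter on low counts 4 passed, all lower, where 0.221% of all genes were called lower.

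**Figure D1:**
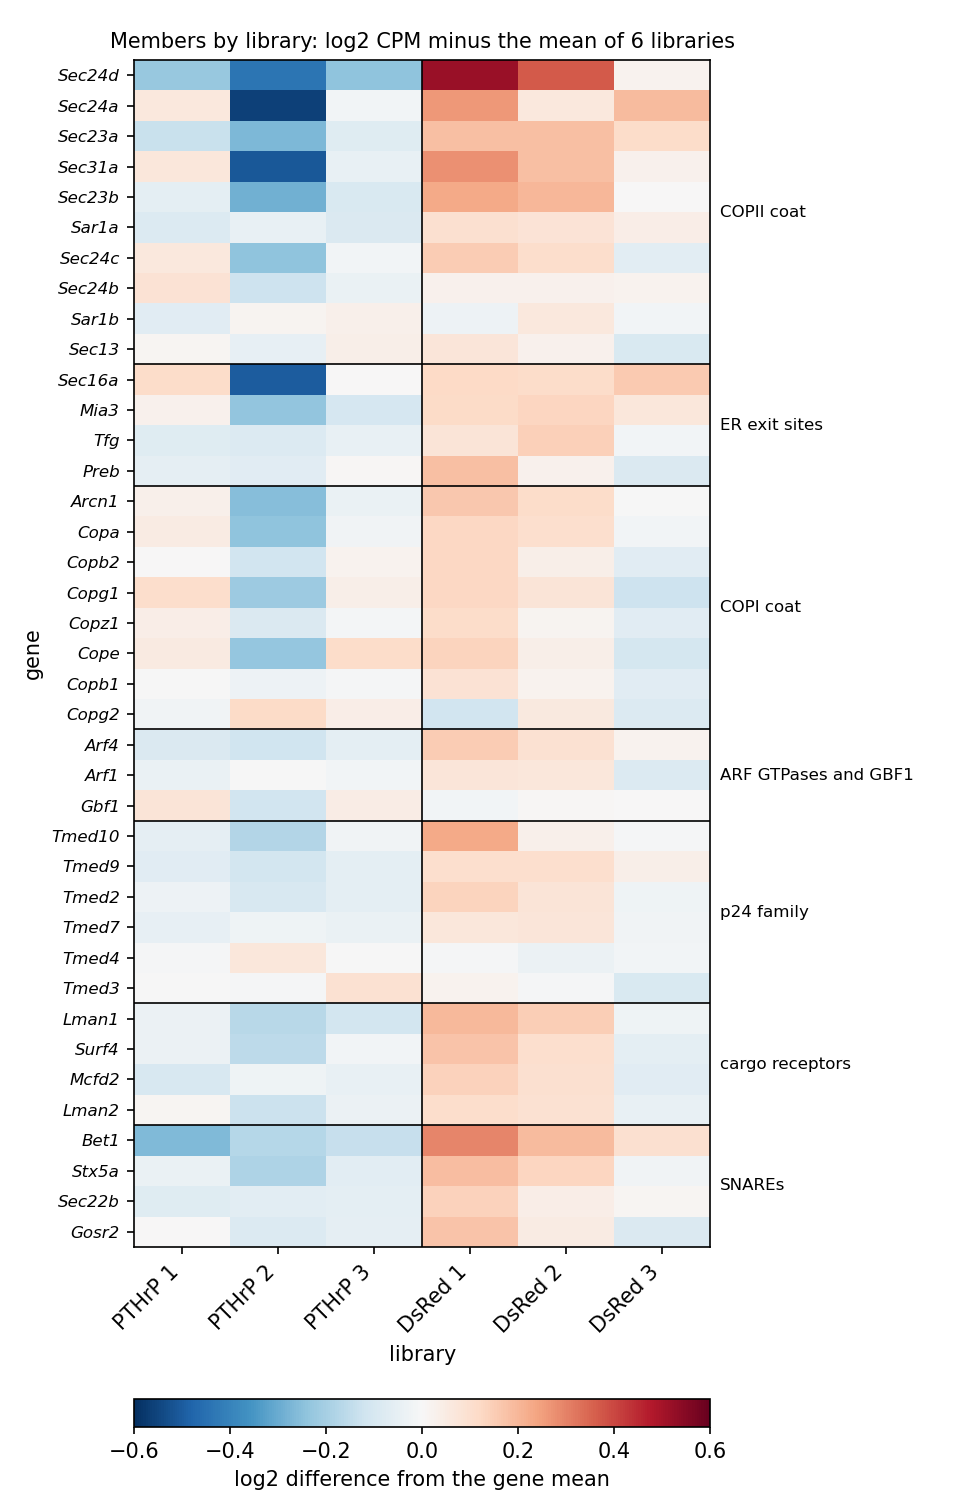
Each row is a member and each column a library, and the colour gives the log2 CPM minus the mean of that gene over the 6 libraries, from -0.6 (blue) to 0.6 (red). Rows are grouped by role. Most rows are red in DsRed replicates 1 and 2, and PTHrP replicate 2 holds the deepest blue cells, at Sec24a, Sec31a and Sec16a.

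One library of each group stood apart across the members. DsRed replicate 3 was the lowest DsRed library for 33 of the 39 members, against 36.2% of all genes tested and 52.5% of the 7459 genes. It was also the DsRed library nearest to the PTHrP mean for 29 members, against 34.7% of all genes tested. PTHrP replicate 2 was the lowest PTHrP library for 30 members, against 37.2% of all genes tested and 48% of the 7459 genes. The median member deviated from its mean over the 6 libraries by -0.02, -0.12 and -0.03 on the log2 scale in PTHrP replicates 1, 2 and 3, and by 0.12, 0.08 and -0.02 in DsRed replicates 1, 2 and 3. Only DsRed replicates 1 and 2 had a median deviation above 0. Without PTHrP replicate 2, 31 members were negative with a median of -0.08, 13 were lower at an unadjusted p under 0.05 (6.21% of all genes in that fit) and 1, Bet1, passed (0.318% of all genes were called lower). Without DsRed replicate 3, 35 were negative with a median of -0.17, 19 were lower at an unadjusted p under 0.05 (3.86% of all genes) and 1, Sec24d, passed (0.0629% of all genes were called lower). Without DsRed replicate 1 or DsRed replicate 2, 32 and 33 were negative and 7 were lower at an unadjusted p under 0.05 in each case, with 2.19% and 2.46% of all genes in those fits.

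**Figure D2:**
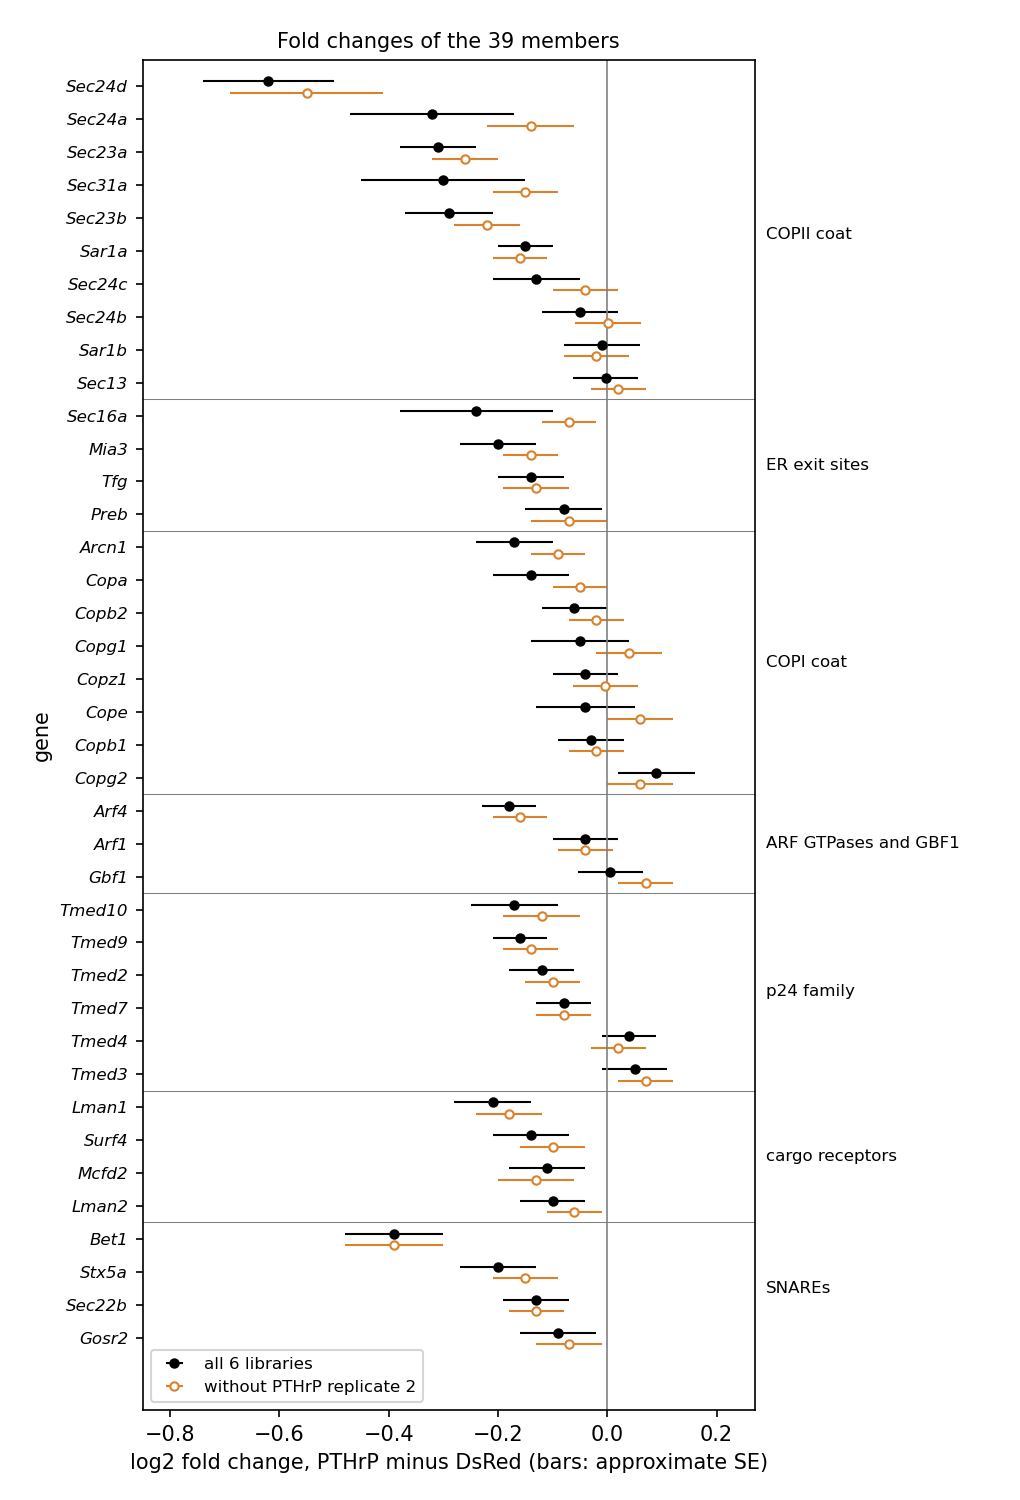
Log2 fold changes of the 39 members on the horizontal axis, PTHrP minus DsRed, with an approximate SE. Filled points use all 6 libraries and open points leave out PTHrP replicate 2. Sec24d lies farthest from 0 at -0.62, and Sec24a, Sec31a and Sec16a move most towards 0 without that library.

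The 10 members of the COPII coat included the largest single difference, that of Sec24d. All 10 were negative, with a median log2 fold change of -0.22, and 4 had an unadjusted p under 0.05: Sec24d, Sec23a, Sec23b and Sar1a. Over all genes tested, 3.98% were lower at that p. Without PTHrP replicate 2, 8 of the 10 were negative and the median was -0.15. Sec24d, a cargo-binding subunit of the inner coat, had 83.7, 72.3 and 82.9 CPM in the PTHrP libraries and 141, 127 and 99.4 CPM in the DsRed libraries. The means were 79.6 ± 6.38 CPM with PTHrP and 122 ± 20.9 CPM with DsRed. The groups did not overlap, and DsRed replicate 3 lay well below the other DsRed libraries. The log2 fold change was -0.62 (SE 0.12, edgeR quasi-likelihood test, unadjusted p = 0.000458, adjusted p = 0.202). It ranged from -0.75 without DsRed replicate 3 (adjusted p = 0.0200) to -0.51 over the fits that left out a library, and the adjusted p reached 0.82 without DsRed replicate 2. DESeq2 gave an adjusted p of 0.000253 and limma-voom with library quality weights 0.0108.

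The other 3 Sec24 paralogues differed less. Sec24a had 22.1, 14.3 and 20.9 CPM with PTHrP and 25.2, 22.0 and 24.03 CPM with DsRed, a log2 fold change of -0.32 (SE 0.15, edgeR adjusted p = 0.567). PTHrP replicate 2 was far the lowest library, and the value without it was -0.14. Sec24b had 102, 87.9 and 92.9 CPM with PTHrP and 97.3, 97.5 and 97.2 CPM with DsRed, and Sec24c had 263, 213 and 249 CPM with PTHrP and 279.7, 271 and 241 CPM with DsRed. The log2 fold change was -0.05 for Sec24b and -0.13 for Sec24c, and without PTHrP replicate 2 it was 0.00085 for Sec24b and -0.04 for Sec24c. The groups overlapped for each of these 3. Per kilobase of merged exon, Sec24c was the most abundant of the family, at 38.4 CPM per kb with PTHrP and 41.9 CPM per kb with DsRed, and Sec24a the least, at 1.79 CPM per kb with PTHrP and 2.22 CPM per kb with DsRed.

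As a share of the family's length-scaled counts, Sec24d was at 17.9%, 18.7% and 18.7% in the PTHrP libraries, against 26.1%, 24.6% and 21.7% in the DsRed libraries, a difference of -5.71 percentage points. The groups did not overlap, and the exact two-sided permutation test gave p = 0.1, the smallest that 3 against 3 libraries can give (adjusted p = 0.2 over 4 shares). This ratio is taken within a library and needs no scaling between libraries. The 4 paralogues together had 73.9, 61.2 and 70.1 CPM per kb with PTHrP and 85.2, 81.3 and 72.4 CPM per kb with DsRed.

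**Figure D3:**
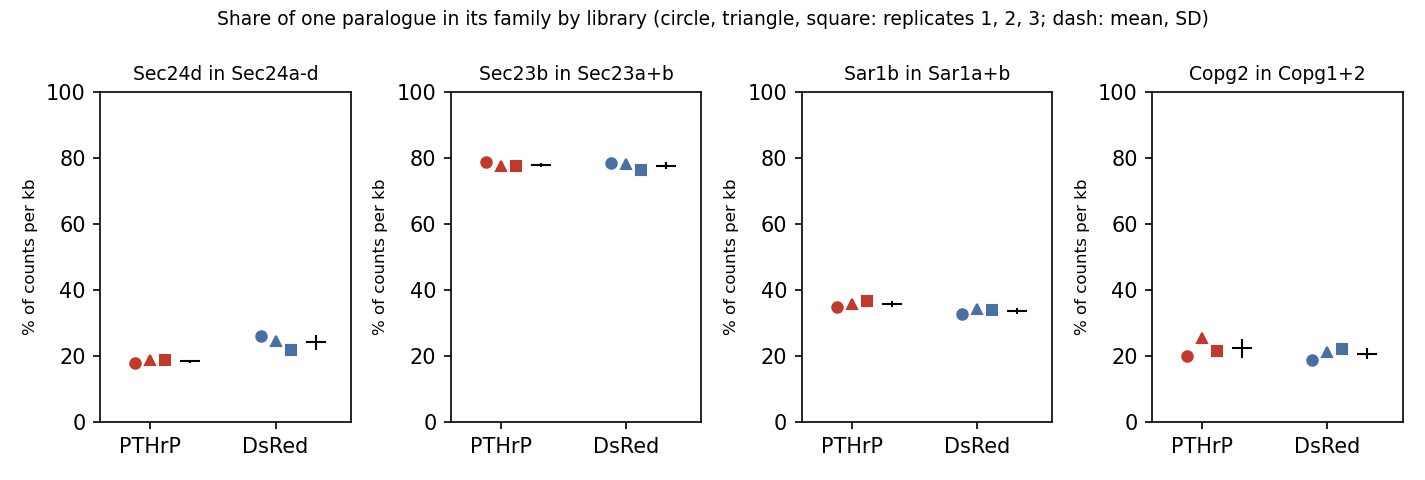
Share of one paralogue in the summed counts per kilobase of its family, in percent, for each library, with PTHrP left of DsRed in each panel and the mean and SD beside the points. Sec24d lies at 17.9% to 18.7% with PTHrP and 21.7% to 26.1% with DsRed, and the Sec23b share is about the same in both groups.

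Both Sec23 genes, whose product is the inner-coat partner of SEC24 and activates the SAR1 GTPase, had negative fold changes of similar size. Sec23a had 48.7, 44.3 and 50.8 CPM with PTHrP and 60.5, 60.4 and 57.6 CPM with DsRed, a log2 fold change of -0.31 (SE 0.07, edgeR adjusted p = 0.252). Sec23b had 234, 199.8 and 229 CPM with PTHrP and 286, 280.0 and 244 CPM with DsRed, a log2 fold change of -0.29 (SE 0.08, edgeR adjusted p = 0.327). The groups did not overlap for either gene. Sec23b made up 78.0% ± 0.612 of the pair per length with PTHrP and 77.7% ± 1.01 with DsRed (SD, n = 3 each), a difference of 0.299 percentage points (exact two-sided permutation test, p = 0.8, adjusted p = 0.8). Exons of Sec23a overlap those of Gm17529 on the opposite strand over 431 bases, and that gene was at 0.093 CPM with PTHrP and 0.28 CPM with DsRed.

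SAR1, the GTPase that starts coat assembly, is encoded by 2 genes. Sar1a had 303, 311 and 302 CPM with PTHrP and 344, 340.4 and 330.3 CPM with DsRed (log2 fold change -0.15, SE 0.05, edgeR adjusted p = 0.411), and the groups did not overlap. Sar1b had 54.5, 57.8 and 58.4 CPM with PTHrP and 56.0, 59.7 and 56.6 CPM with DsRed (log2 fold change -0.01, edgeR adjusted p = 0.968), with groups that overlapped and a value of 0.02 without PTHrP replicate 1 or DsRed replicate 2. The share of Sar1b per length was 34.9%, 35.6% and 36.5% with PTHrP and 32.7%, 34.3% and 33.8% with DsRed (exact two-sided permutation test, p = 0.1, adjusted p = 0.2). These shares depend on the length used: per coding length, which is 594 bases for both genes, the Sar1b share was 15.7% ± 0.480 with PTHrP and 14.5% ± 0.462 with DsRed (SD, n = 3 each), a difference of 1.17 points. Of the outer cage, Sec13, which also belongs to the nuclear pore, had 196 ± 5.89 CPM with PTHrP and 197 ± 11.4 CPM with DsRed, a log2 fold change of -0.003 (edgeR adjusted p = 0.993) that was 0.0038 with library sizes alone. Sec31a, its partner in the cage, had 275, 184 and 255 CPM with PTHrP and 318, 297 and 267 CPM with DsRed. Its log2 fold change was -0.30 with all libraries and -0.15 without PTHrP replicate 2, and the groups overlapped.

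Promoter sequence is shown because 7 members carry, near the start of the gene, the UPRE motif, which is known to bind XBP1 and ATF6. RefSeq windows of 300 bases on GRCm38.p6, from 250 bases before an annotated start to 50 bases after it, were matched for 35 of the 39 members, which had 40 windows. Arcn1, Lman1, Tmed2 and Tmed7 had none. The UPRE motif TGACGTGG, searched on both strands, was in 8 of the 40 windows (20%), in Sec24d, Sec23a, Stx5a, Copb1, Copb2, Gbf1 and, in overlapping windows, Arf1. The same 8 letters were in 0.676% of all 32851 windows, and in 0.922% of the 7809 windows of genes with a level at or above that of the lowest member. The printed stretches of 280 bases run 5′ to 3′ on the strand of the gene and end 30 bases after its RefSeq start. Capitals mark the motif or its reverse complement. Sec24d (plus strand, chr3:123267246-123267525), Sec23a (minus strand, chr12:59011988-59012267) and Stx5a (plus strand, chr19:8741174-8741453) are the 3 holders with the smallest p, and Bet1 (minus strand, chr6:4086901-4087180) is the member with the smallest p among those without it.
Sec24d: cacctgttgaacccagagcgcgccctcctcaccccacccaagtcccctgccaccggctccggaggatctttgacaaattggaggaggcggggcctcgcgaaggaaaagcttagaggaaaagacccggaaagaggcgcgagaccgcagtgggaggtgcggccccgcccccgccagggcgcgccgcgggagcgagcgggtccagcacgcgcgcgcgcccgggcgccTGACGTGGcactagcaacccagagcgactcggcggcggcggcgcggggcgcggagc
Sec23a: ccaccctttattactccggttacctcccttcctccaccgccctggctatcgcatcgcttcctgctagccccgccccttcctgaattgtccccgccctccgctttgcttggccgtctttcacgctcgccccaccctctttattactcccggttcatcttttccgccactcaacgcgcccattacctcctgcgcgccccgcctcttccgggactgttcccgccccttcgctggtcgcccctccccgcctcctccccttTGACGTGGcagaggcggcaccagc
Stx5a: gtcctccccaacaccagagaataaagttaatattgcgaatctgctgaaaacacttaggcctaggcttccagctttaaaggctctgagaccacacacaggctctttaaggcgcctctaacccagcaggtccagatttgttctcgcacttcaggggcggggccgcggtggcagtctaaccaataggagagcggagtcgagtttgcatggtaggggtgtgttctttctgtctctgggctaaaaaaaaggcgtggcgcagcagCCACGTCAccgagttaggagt
Bet1: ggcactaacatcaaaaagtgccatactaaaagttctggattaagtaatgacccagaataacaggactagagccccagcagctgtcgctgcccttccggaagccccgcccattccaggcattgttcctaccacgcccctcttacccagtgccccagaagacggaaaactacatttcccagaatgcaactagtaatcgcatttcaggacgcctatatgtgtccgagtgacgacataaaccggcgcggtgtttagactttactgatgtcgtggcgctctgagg

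Distances are counted from the RefSeq start of the window. The motif begins 26 bases before it in Sec24d, 6 bases after it in Sec23a and 9 bases after it in Stx5a. Stx5a has another copy 39 bases after that start, beyond the printed stretch. In the members not printed the motif begins 7 bases before that start in Copb2, 28 in Copb1 and 12 in Gbf1. The GENCODE M21 gene models of Sec24d, Copb2, Copb1 and Gbf1 start farther upstream, and on those models the motif lies inside the gene. The 7 members with the motif had a median log2 fold change of -0.06, and 3 of them had an unadjusted p under 0.05, all lower. The 28 members with a window and no motif had a median of -0.13, and 9 had an unadjusted p under 0.05, all lower. Over all genes tested, 3.98% were lower at that p. Copb1, Copb2, Gbf1 and Arf1, which carry the motif, had log2 fold changes of -0.03, -0.06, 0.0059 and -0.04 in turn. Neither ERSE (CCAAT and CCACG with 9 bases between them) nor ERSE-II (ATTGG and CCACG with 1 base between them) was in a member window, against 0.119% and 0.0365% of all windows. Both are so rare that their absence from 40 member windows says little. The CRE TGACGTCA was in 5% of member windows, in Cope and Gosr2, and in 1.79% of all windows and 3.42% of those of the 7459 genes. The short sequences ACGT and CCACG, of which the first lies within UPRE and the second within its reverse complement, were in 72.5% and 70% of member windows, in 42.7% and 49.9% of the windows of the 7459 genes, and in 30.9% and 32.8% of all windows. CCAAT was in 45% of member windows, in 38.3% of the windows of the 7459 genes and in 37.4% of all windows.

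**Figure D4:**
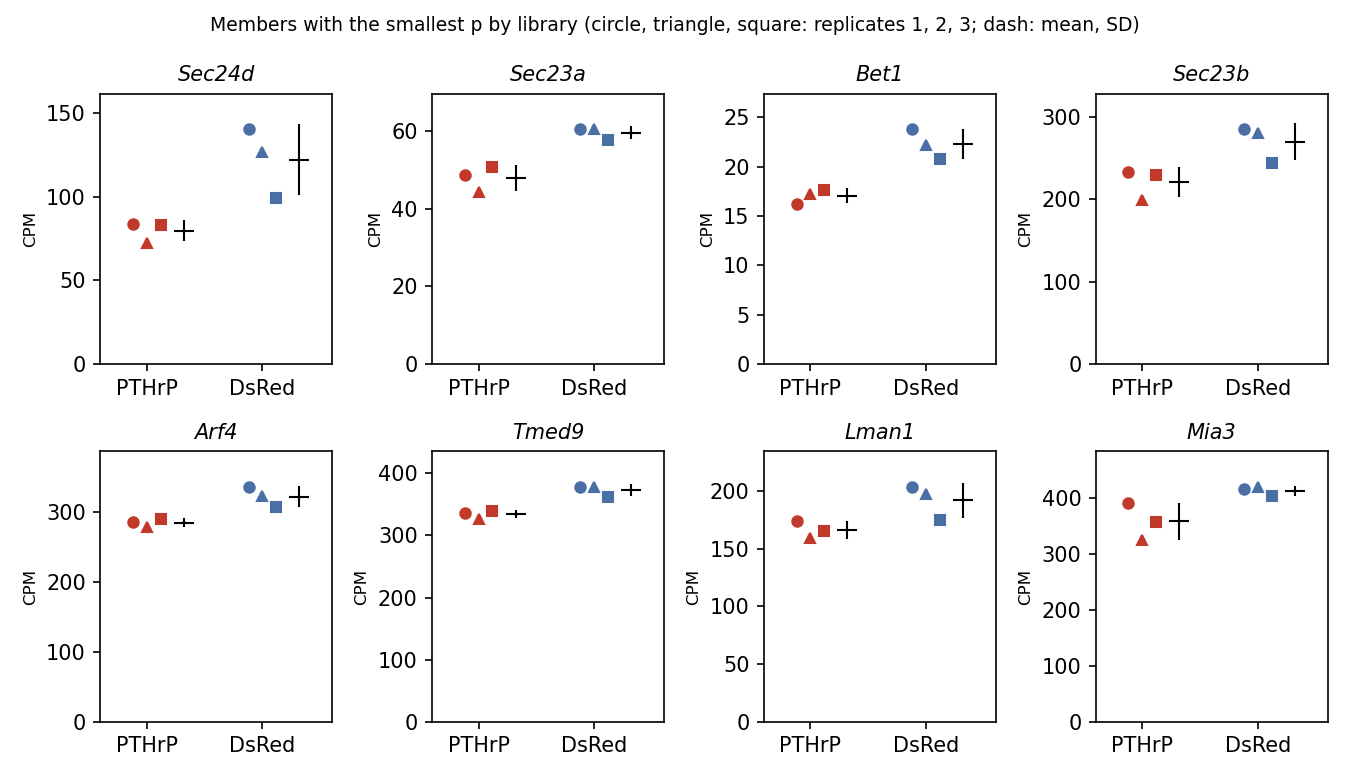
CPM by library for the 8 members with the smallest unadjusted p, PTHrP left of DsRed, with the mean and SD beside the points and each vertical axis starting at 0. In every panel the 3 PTHrP libraries lie under the 3 DsRed libraries, by less than 1 CPM in Lman1, and DsRed replicate 3 (square) is the lowest DsRed point.

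At the ER exit sites all 4 members were negative, with a median log2 fold change of -0.17 that was -0.10 without PTHrP replicate 2. Mia3, which encodes TANGO1, the exit-site receptor for bulky cargo such as collagen, had 391, 325 and 358 CPM with PTHrP and 415, 420.2 and 403 CPM with DsRed (log2 fold change -0.20, SE 0.07, edgeR adjusted p = 0.393), and -0.14 without PTHrP replicate 2. Tfg, a scaffold between exit sites and the next compartment, had 121, 119.9 and 123 CPM with PTHrP and 134, 140.3 and 126 CPM with DsRed (log2 fold change -0.14, SE 0.06, edgeR adjusted p = 0.535). The groups did not overlap for either, where 7.88% of all genes tested had PTHrP libraries that all lay under the DsRed libraries. Sec16a, the exit-site scaffold, had 184, 121 and 171 CPM with PTHrP and 186, 185 and 190.4 CPM with DsRed. PTHrP replicate 2 stood far below the others, and the remaining libraries of both groups were close together, with a gap under 1 CPM between the groups. Its log2 fold change of -0.24 was -0.07 without that library. Preb, known as SEC12, the exchange factor that loads SAR1 with GTP, had a log2 fold change of -0.08, and its groups overlapped. Exons of Preb overlap those of Abhd1 on the opposite strand over 21.9% of their length, and Abhd1 was at 0.034 CPM with PTHrP and 0.015 CPM with DsRed.

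In the COPI coat the fold changes were small. Of its 8 members 7 were negative, with a median log2 fold change of -0.04 and a range of -0.17 to 0.09, and the groups overlapped for all 8. When a library was left out the median ranged from -0.11 without DsRed replicate 3 to 0.0025 without DsRed replicate 1, where 4 of the 8 were negative, and it was -0.01 without PTHrP replicate 2. Arcn1, the delta subunit, had the smallest p, at 513, 421 and 489.5 CPM with PTHrP and 562, 542 and 502 CPM with DsRed (log2 fold change -0.17, SE 0.07, edgeR adjusted p = 0.534), and -0.09 without PTHrP replicate 2. Copa, the alpha subunit, had 662 ± 67.8 CPM with PTHrP and 727 ± 36.8 CPM with DsRed, a log2 fold change of -0.14 that was -0.05 without PTHrP replicate 2. Copb1 (beta), Copb2 (beta prime), Copz1 (zeta) and Cope (epsilon) had log2 fold changes of -0.06 to -0.03. Copb2 was -0.02 and Cope 0.06 without PTHrP replicate 2. Exons of Copa overlap those of Ncstn on the opposite strand over 195 bases, and Ncstn was at 231 CPM with PTHrP and 229 CPM with DsRed.

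The 2 gamma subunits of COPI, which take the same place in the coat, lay on either side of 0. Copg1 had 670.4, 536 and 637 CPM with PTHrP and 677, 657 and 570.0 CPM with DsRed (log2 fold change -0.05, SE 0.09, edgeR adjusted p = 0.916), and its value was 0.04 without PTHrP replicate 2. Copg2 had 78.1, 85.6 and 81.3 CPM with PTHrP and 73.1, 82.4 and 74.7 CPM with DsRed (log2 fold change 0.09, SE 0.07, edgeR adjusted p = 0.752). The share of Copg2 per length was 22.4% ± 2.87 with PTHrP and 20.7% ± 1.64 with DsRed (SD, n = 3 each; exact two-sided permutation test, p = 0.5, adjusted p = 0.667). PTHrP replicate 2 held the highest share, 25.6%, and the difference was 1.69 points per merged exon length and 1.02 points per coding length. Exons of Copg2 overlap those of Mest on the opposite strand over 912 bases, and Mest was at 0.679 CPM with PTHrP and 0.81 CPM with DsRed. Over the 6 libraries Copg1 stood at 56.7 CPM per kb of merged exon and Copg2 at 15.5 CPM per kb.

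The GTPases that recruit COPI differed in their values. Arf4 had 285, 278 and 290.4 CPM with PTHrP and 336, 322 and 307 CPM with DsRed (log2 fold change -0.18, SE 0.05, edgeR adjusted p = 0.371), and the groups did not overlap. Arf1 had 695, 712 and 707 CPM with PTHrP and 749.7, 748 and 674 CPM with DsRed, groups that overlapped (log2 fold change -0.04, edgeR adjusted p = 0.89). It was the most abundant member per length, at 337 CPM per kb with PTHrP and 346 CPM per kb with DsRed. Gbf1, their exchange factor at the early Golgi, had 146 ± 10.3 CPM with PTHrP and 145 ± 1.27 CPM with DsRed, a log2 fold change of 0.0059 that was -0.003 with upper-quartile factors and 0.07 without PTHrP replicate 2. Exons of Arf4 overlap those of Pde12 on the opposite strand over 527 bases, and Pde12 was at 38.1 CPM with PTHrP and 36.6 CPM with DsRed.

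The p24 proteins, which form mixed complexes that sort GPI-anchored and other cargo between both coats, were 4 negative and 2 positive. Tmed9 had 336, 327 and 339 CPM with PTHrP and 378, 378 and 361 CPM with DsRed (log2 fold change -0.16, SE 0.05, edgeR adjusted p = 0.388). Tmed10 had 88.2, 81.3 and 90.3 CPM with PTHrP and 107, 93.8 and 91.2 CPM with DsRed (log2 fold change -0.17, SE 0.08, edgeR adjusted p = 0.544). Tmed2 and Tmed7 also had groups that did not overlap, with log2 fold changes of -0.12 and -0.08, while the gap between the groups was under 1 CPM in Tmed7 and Tmed10. Over all genes tested, 7.88% had PTHrP libraries that all lay under the DsRed libraries. Tmed4, at 0.04, was the member whose PTHrP libraries all lay over the DsRed libraries, and that separation was lost with upper-quartile factors and with library sizes alone. Tmed3 was at 0.05, with groups that overlapped.

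All 4 cargo receptors were negative, with a median log2 fold change of -0.13 that was -0.08 without DsRed replicate 1. Lman1, which encodes the lectin ERGIC-53 that carries glycoproteins out of the ER, had 174, 159 and 165 CPM with PTHrP and 204, 197 and 175 CPM with DsRed (log2 fold change -0.21, SE 0.07, edgeR adjusted p = 0.388). DsRed replicate 3 lay less than 1 CPM over the highest PTHrP library. Mcfd2, the partner of LMAN1 in the export of coagulation factors, had a log2 fold change of -0.11, and Lman2, the lectin VIP36, had -0.10. Surf4, a receptor for soluble secreted proteins and the most abundant member by CPM, had 897, 825 and 910.0 CPM with PTHrP and 1036, 986 and 884 CPM with DsRed (log2 fold change -0.14, SE 0.07, edgeR adjusted p = 0.567). The groups overlapped for Surf4, Mcfd2 and Lman2, with DsRed replicate 3 among the PTHrP libraries. Exons of Surf4 overlap those of Surf2 on the opposite strand over 144 bases, and Surf2 was at 33.6 CPM with PTHrP and 33.4 CPM with DsRed.

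The 4 SNAREs, which fuse ER-derived vesicles with each other and with the Golgi, were all negative, with a median log2 fold change of -0.16. Bet1 had 16.2, 17.3 and 17.7 CPM with PTHrP and 23.8, 22.2 and 20.8 CPM with DsRed. The means were 17.0 ± 0.753 CPM with PTHrP and 22.3 ± 1.53 CPM with DsRed. Its log2 fold change of -0.39 (SE 0.09, edgeR adjusted p = 0.252) moved between -0.43 and -0.34 over the fits that left out a library, and it passed without PTHrP replicate 2 (adjusted p = 0.0481) and with DESeq2 (adjusted p = 0.0178). Without DsRed replicate 1 its adjusted p was 0.949, the highest of these fits. Bet1 was the lowest member by CPM. Stx5a, the syntaxin of the complex, had 119, 107 and 117 CPM with PTHrP and 139, 134 and 120.3 CPM with DsRed (log2 fold change -0.20, SE 0.07, edgeR adjusted p = 0.428). Sec22b had 120.1, 121 and 121 CPM with PTHrP and 139, 129.6 and 127 CPM with DsRed (log2 fold change -0.13, SE 0.06, edgeR adjusted p = 0.548). The groups did not overlap for these 3 genes, while those of Gosr2, at -0.09, did. All PTHrP libraries lay under all DsRed libraries for 7.88% of all genes tested.

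Among the members, the position of PTHrP replicate 2 went with gene length. Its log2 difference from the mean of PTHrP replicates 1 and 3 was -0.58 for Sec24a, -0.56 for Sec16a and -0.52 for Sec31a, whose longest coding lengths are 3270, 7131 and 3690 bases. It was 0.03 for Bet1, 0.04 for Mcfd2 and 0.04 for Sar1a, with 354, 435 and 594 coding bases. Not every member followed: Cope, with 924 coding bases, was at -0.31 and Copg2, with 2613, at 0.10. Across the 39 members the Spearman correlation of this difference with coding length was -0.68, and with the merged exon length -0.62. Across the 7387 genes at or above the lowest member's level that have a coding length it was -0.44. These are correlations across genes of the same libraries, which are not independent replicates, and are given as a description. For DsRed replicate 3 against DsRed replicates 1 and 2 the correlation with coding length was 0.04 across the members. Across all genes tested, the correlation with coding length was -0.21 for PTHrP replicate 2 and -0.02 for DsRed replicate 3. With merged exon length it was about the same for both there, -0.16 for PTHrP replicate 2 and -0.17 for DsRed replicate 3. The part of gene length in the results was not tested. Sec24a, Sec16a and Sec31a were picked here after their values were seen.

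**Figure D5:**
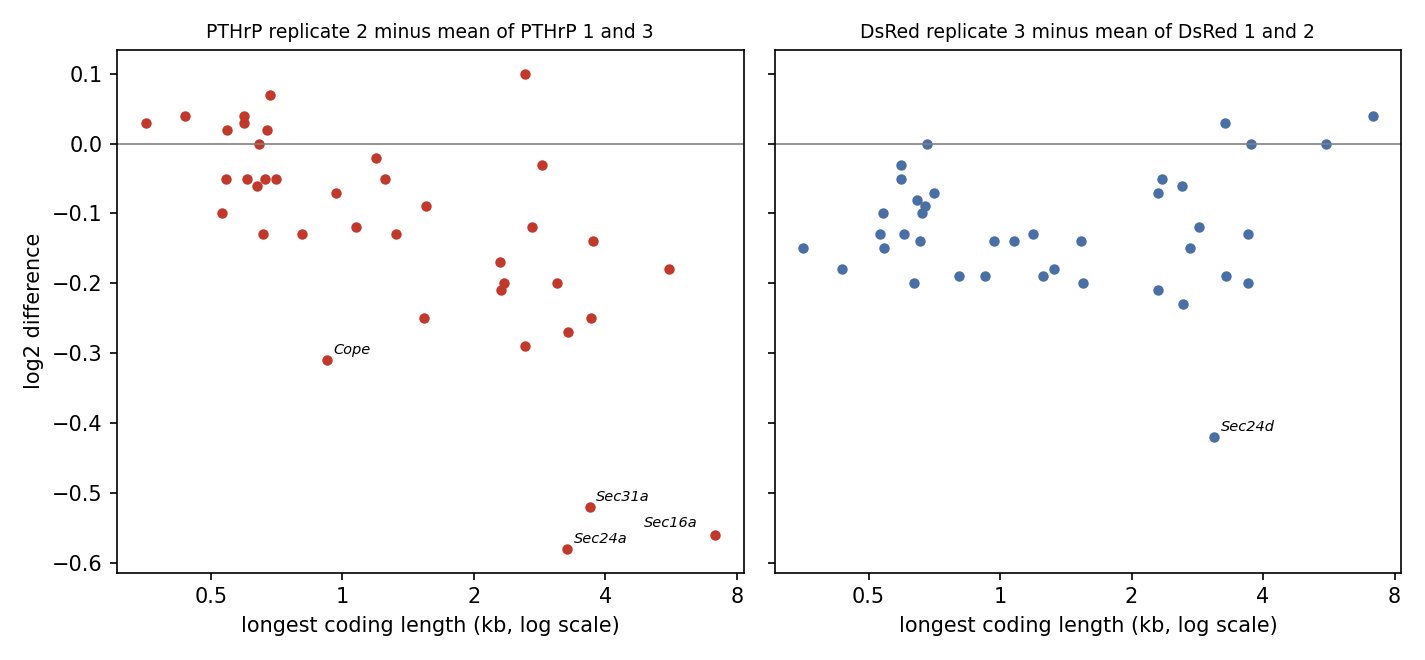
Log2 difference of PTHrP replicate 2 from the mean of the other PTHrP libraries (left) and of DsRed replicate 3 from the mean of the other DsRed libraries (right) against the longest coding length of each member in kb, on a log axis. On the left the points fall with length, to -0.56 for Sec16a. On the right most points lie under 0, and Sec24d is lowest at -0.42.

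A wider list of the same route was divided in direction. Of 70 further ER to Golgi transport genes 68 were measured, and Lman1l and Cideb were not among the genes tested. Of the 68, 35 were negative, with a median log2 fold change of -0.0075, and none passed over all genes (edgeR quasi-likelihood test). At an unadjusted p under 0.05, 6 were lower and 6 higher, while 3.98% of all genes tested were lower and 4.92% higher. DESeq2 called 2, both lower, where 0.354% of the genes with an adjusted p were called lower. With limma-voom none passed. With limma-voom and library quality weights 3 passed, all lower, where 0.416% of all genes were called lower. Erp44, a thiol chaperone that retrieves clients from the early Golgi, came closest, at 73.2, 77.3 and 72.8 CPM with PTHrP and 103, 93.8 and 98.0 CPM with DsRed (log2 fold change -0.40, SE 0.06, edgeR adjusted p = 0.0667). It passed without PTHrP replicate 2 (-0.43, adjusted p = 0.0014), and the fits that left out another library gave adjusted p of 0.14 to 0.386. Uso1, the vesicle tether p115, had -0.38 (SE 0.09, edgeR adjusted p = 0.307), Arfgap3, a GTPase activator of ARF1, -0.27 (SE 0.07, adjusted p = 0.303), and Tmed5, another p24 protein, -0.25 (SE 0.08, adjusted p = 0.388). These 3 passed without PTHrP replicate 2, at adjusted p of 0.0331, 0.0294 and 0.0433 in turn, in the fit that called 0.318% of all genes lower. Without DsRed replicate 1 the adjusted p was 0.949 for each. Trappc5 and Trappc12, subunits of the TRAPP tether, had 0.28 and 0.19 (edgeR adjusted p = 0.404 for both). Of the 14 TRAPP subunits measured 10 were positive, where 10297 of all 21141 genes tested were positive.

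Among regulators of early secretory genes, Xbp1 fell. This transcription factor of the IRE1 branch of the ER stress response had 339, 348 and 350.1 CPM with PTHrP and 473, 450.3 and 453 CPM with DsRed (log2 fold change -0.41, SE 0.05, edgeR adjusted p = 0.014). Its adjusted p was 0.0741 to 0.15 when PTHrP replicate 1, PTHrP replicate 3, DsRed replicate 1 or DsRed replicate 2 was left out. Unlike most members, Xbp1 did not have its lowest DsRed value in replicate 3. Creb3l2, a transcription factor known to drive Sec23a in cartilage, had 21.8, 15.2 and 20.8 CPM with PTHrP and 29.1, 26.8 and 21.9 CPM with DsRed (log2 fold change -0.43, SE 0.15, edgeR adjusted p = 0.414). Its groups did not overlap, DsRed replicate 3 was close to the PTHrP libraries, and its log2 fold change was -0.28 without PTHrP replicate 2. Atf6 (0.07), Creb3 (-0.03), Creb3l1 (0.12) and Ern1, which encodes the sensor IRE1 (0.14), had groups that overlapped and did not pass.

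In GRCm38 positions from GENCODE M21, Sec24d lies on chromosome 3 at 123267455 to 123365641, Sec23a on chromosome 12 at 58958383 to 59012017, Bet1 on chromosome 6 at 4076899 to 4086972 and Sec23b on chromosome 2 at 144556229 to 144590749. All 39 members are annotated as protein-coding. Exons of 13 members overlap exons of another gene, over at most 21.9% of the member's exon length, and without a stated strand setting the reads there cannot be assigned.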

How the data were processed

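RNA of 6 MIN6 libraries was analysed from raw counts per gene, which the authors deposited as a table. Per the submitters' processing notes, bcl2fastq, STAR and featureCounts 2.0.3 were used on GRCm38, with annotation, strand setting and handling of multi-mapping reads not given in the sources used here. Of 55774 entries, 287 repeated an Ensembl identifier with identical counts and were dropped. Groups and replicate numbers come from the library titles, and nothing there says that replicates were separate cultures, so the spread behind the p-values may be technical. Every pair of libraries differed by more than sampling noise (chi-square per gene of at least 9.08). Pairs with PTHrP replicate 2 had values of 55.52 to 68.58, and the other pairs 9.08 to 36.85, so that library stood apart beyond the members.

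Counts were filtered with filterByExpr, scaled with TMM and tested with edgeR 4.0.16 (R 4.3.3, quasi-likelihood F-test, robust, group term only, two-sided) with Benjamini-Hochberg adjustment over all 21141 genes at a threshold of 0.05. The SE is the coefficient over the square root of F. Alternatives were DESeq2 1.42.0, limma-voom (limma 3.58.1) with and without quality weights, scaling by RLE, by upper quartiles or by library size, no filter or one of 1 CPM in at least 3 libraries, a replicate term and leaving out each library. The steps were run on simulated counts of genes with at least 1 CPM in 3 libraries, with the same variation for every gene. That run does not give the power for differences as small as the median of the members. Exon and coding lengths come from GENCODE M21. CPM per kb is the TMM-scaled CPM over the merged exon length, so orders of level between genes can depend on that length, while shares of paralogues use raw counts over that length. The log2 deviations of single libraries carry 0.1 CPM as a pseudocount in the comparison with gene length, and none elsewhere.

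The members and all lists were chosen with earlier results of these data known, so they get no test of their own. Library values are given in full for the 14 members with the smallest p, the paralogue families and the extremes of level. The planned description of protein tails was not run, as protein sequences were not used here.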

Additional observations from a re-analysis of the deposited data

How the results depend on the processing

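Of 780 values of 52 genes under the alternatives, 729 kept direction and call, 24 newly passed, 5 no longer passed and 22 changed sign, in 10 genes. Only Xbp1 and Pthlh passed in the edgeR test with all libraries, so for the other genes a kept call means not passing again. Pthlh passed in all 15 alternatives and Xbp1 in 10 of 15, and the 5 values that no longer passed were all of Xbp1. No member passed with TMM, RLE or upper-quartile factors, library sizes alone, at least 1 CPM in 3 libraries or limma-voom, while 3 passed with DESeq2, 3 with limma-voom and quality weights, 4 with no filter on low counts, and 0 to 1 when a library was left out. Over all genes, those called lower numbered 53 with DESeq2, 88 with quality weights, 98 with no filter and 71 without PTHrP replicate 2, against 5 with all libraries in the edgeR test. Of the other ER to Golgi transport genes, 2 passed with DESeq2, 2 with no filter, 3 with quality weights, and 0 to 4 when a library was left out. The members lower at an unadjusted p under 0.05 numbered 7 to 19 when a library was left out. There were 7 without DsRed replicate 1 or DsRed replicate 2 (2.19% and 2.46% of all genes) and 19 without DsRed replicate 3 (3.86%). In the main edgeR test they numbered 14, where 3.98% of all genes tested were lower at that p. For the fits with another scaling, filter or test, that share was not taken, so their counts of members are left out. Members with a negative fold change numbered 31 to 36 when a library was left out, and the median of all members ranged from -0.17 to -0.08. Members whose PTHrP libraries all lay over the DsRed libraries were 0 with upper-quartile factors and 0 with library sizes alone. Those whose PTHrP libraries all lay under numbered 16 with TMM, 13 with RLE factors, 19 with upper-quartile factors and 15 with library sizes alone. The share of all genes lying under was taken only with TMM, 7.88%. When a library was left out, the difference in share ranged from -6.93 to -4.75 points for Sec24d, -0.279 to 0.662 for Sec23b, 1.61 to 2.47 for Sar1b and 0.0917 to 2.87 for Copg2. Per coding length and per longest transcript it was -5.89 and -6.24 for Sec24d, 0.257 and 0.213 for Sec23b, 1.17 and 1.84 for Sar1b and 1.02 and 1.27 for Copg2.

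Sign changes concerned 10 genes that did not pass. Sec13 was 0.0038 with library sizes alone, 0.0046 with no filter and 0.0027 with quality weights, Cope was 0.02 with quality weights, and Gbf1 was -0.003 with upper-quartile factors and -0.0044 with at least 1 CPM in 3 libraries. When a library was left out, Sec24b ranged from -0.11 to 0.00085, Sec13 from -0.05 to 0.03, Sar1b from -0.04 to 0.02, Copb1 from -0.07 to 0.0074, Copg1 from -0.12 to 0.04, Cope from -0.11 to 0.06, Copz1 from -0.08 to 0.0054, Gbf1 from -0.03 to 0.07, Creb3 from -0.08 to 0.0051 and Creb3l1 from -0.06 to 0.26. The cause of these changes was not tested.

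The replicate block left 0 members past the threshold and 35 negative, with a median of -0.13, and gave Xbp1 an adjusted p of 0.0865. Libraries with the same number had deviations correlated at 0.023, -0.106 and 0.025, and those with unlike numbers at -0.155 to 0.131. The labels do not say whether libraries with the same number were prepared together, and these values cannot settle it. The depth leaves counting error small for the members, of which the lowest had 19.7 CPM, and the 3 libraries per group set the precision.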

Other observations

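The UPRE letters TGACGTGG were looked up in the promoter windows of all genes with a level at or above that of the lowest member, a count added after the motif had been seen in the members. Of 68 such genes with the motif, 44 had a negative log2 fold change and the median was -0.04. At an unadjusted p under 0.05, 14 of the 68 were lower (20.6%) and none was higher. Of 5960 genes with a window and no motif, 2977 were negative, 354 were lower (5.94%) and 475 higher (7.97%) at that p. The 68 include 7 of the members, 3 of which are among the 14, and no test was run on this difference.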
